A study of Rattus norvegicus with 8 samples.

Results

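The HOX genes of the rat and the caudal-type homeobox genes Cdx1, Cdx2 and Cdx4 were followed by RNA sequencing in rat pluripotent cells and in the germ cell-like cells made from them. The set was chosen by gene symbol alone: every symbol made of Hox, a cluster letter from a to d and a number, plus the 3 CDX symbols. It holds 41 of the 22228 named genes of the deposited table, of which 38 are HOX genes (10 of the HOXA cluster, 10 of HOXB, 9 of HOXC and 9 of HOXD).

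Rat embryonic stem cells (ESC) were grown on mouse embryonic fibroblast feeders with the MEK inhibitor PD0325901 at 1 µM, the GSK3 inhibitor CHIR99021 at 3 µM and rat LIF at 1000 U/ml. Epiblast-like cells (EpiLC) were made from them in aggregates, over 60 hours with activin A at 20 ng/ml, bFGF at 12 ng/ml and 1% KSR. Primordial germ cell-like cells (PGCLC_d3) were induced from EpiLC aggregates for 3 days with BMP4 at 500 ng/ml, SCF at 100 ng/ml, EGF at 50 ng/ml and rat LIF at 1000 U/ml, and were sorted by a tdTomato reporter of the germ cell gene Nanos3. In the last group (PGCLC_d3ag3), 5000 sorted PGCLC_d3 cells were combined with 50000 somatic cells of E15.5 female rat gonads, depleted of c-KIT-positive germ cells, and cultured in 5% KSR. Reporter-positive cells were sorted again 3 days later. All cells carry the strain label Crlj:WI and the genotype label wild type, although 2 of the 4 groups were sorted by a reporter. Each group has 2 libraries. The labels do not state whether the 2 libraries of a group are separate cultures, and the p-values below therefore reflect library-to-library spread that may be technical.

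HOX genes encode homeodomain transcription factors that set position along the head-to-tail axis. They lie in 4 clusters, and within a cluster genes of low number are switched on earlier and further forward than genes of high number (collinearity). CDX proteins, which answer to WNT and FGF signals in the tail end of the embryo, activate many HOX genes there, and Cdx2 is also a master factor of trophectoderm and gut. In mouse primordial germ cells the germ cell regulator Prdm1 is known for holding HOX genes down.

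The start regions of the 5 genes on which the account below turns are printed here: 3 HOXA genes and Cdx2, which were among the highest in ESC, and Hoxb1, which was the highest HOX gene in PGCLC_d3ag3. Each is a RefSeq window of build GRCr8 with 250 bases before and 50 after the gene's start. Capitals mark matches to the motifs named after the sequences.
Hoxa7, chr4:82648192-82648491, strand -: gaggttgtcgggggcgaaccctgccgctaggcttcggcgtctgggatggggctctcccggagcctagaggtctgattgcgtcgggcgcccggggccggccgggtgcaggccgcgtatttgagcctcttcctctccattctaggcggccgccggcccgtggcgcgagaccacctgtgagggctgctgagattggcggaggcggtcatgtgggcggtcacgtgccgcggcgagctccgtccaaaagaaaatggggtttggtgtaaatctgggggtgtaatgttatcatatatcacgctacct
Hoxa9, chr4:82656999-82657298, strand -: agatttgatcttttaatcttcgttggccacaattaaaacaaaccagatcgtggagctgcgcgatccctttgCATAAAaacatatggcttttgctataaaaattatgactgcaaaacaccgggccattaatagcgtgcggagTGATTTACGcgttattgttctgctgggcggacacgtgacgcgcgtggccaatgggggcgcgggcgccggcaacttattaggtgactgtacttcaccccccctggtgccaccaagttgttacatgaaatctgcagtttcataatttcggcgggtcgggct
Hoxa11, chr4:82676752-82677051, strand -: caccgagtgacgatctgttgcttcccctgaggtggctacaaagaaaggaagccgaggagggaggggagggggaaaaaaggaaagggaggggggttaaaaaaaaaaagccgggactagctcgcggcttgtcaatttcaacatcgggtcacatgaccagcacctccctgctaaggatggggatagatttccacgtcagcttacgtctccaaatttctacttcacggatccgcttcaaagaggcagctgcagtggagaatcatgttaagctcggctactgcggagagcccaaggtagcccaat
Cdx2, chr12:12762654-12762953, strand +: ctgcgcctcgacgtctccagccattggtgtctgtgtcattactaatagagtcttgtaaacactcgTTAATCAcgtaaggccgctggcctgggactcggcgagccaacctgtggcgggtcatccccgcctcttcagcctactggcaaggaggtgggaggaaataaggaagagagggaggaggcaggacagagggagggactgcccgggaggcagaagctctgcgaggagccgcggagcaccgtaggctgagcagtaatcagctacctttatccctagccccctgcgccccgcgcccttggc
Hoxb1, chr10:81827665-81827964, strand +: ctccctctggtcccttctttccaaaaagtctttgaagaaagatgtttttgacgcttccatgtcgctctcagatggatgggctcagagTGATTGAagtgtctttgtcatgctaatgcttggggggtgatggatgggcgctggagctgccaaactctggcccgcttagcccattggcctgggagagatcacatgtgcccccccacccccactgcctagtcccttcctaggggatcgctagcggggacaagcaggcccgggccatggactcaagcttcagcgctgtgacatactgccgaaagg

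RefSeq's table held such a window for 22 of the 41 genes. The windows of these genes were rich in CpG dinucleotides, with a median of 22.5 and a range of 6 to 49, against a median of 7 over all 33469 windows. The printed windows held 29 CpG in Hoxa7, 21 in Hoxa9, 13 in Hoxa11, 18 in Cdx2 and 9 in Hoxb1. Both strands were searched for 3 CDX-type motifs, 2 TCF and LEF-type motifs, a PBX and HOX-type motif and a nuclear receptor motif. The CDX-type TTTATG was found in 2 of the 22 windows (Hoxa9 and Hoxd4) and in 12.7% of all windows. TTTACG occurred in 1 (Hoxa9) and in 2.95% of all, and TTTATTG in 0 and in 4.57% of all. Of the TCF and LEF-type motifs, CTTTGAT occurred in 1 (Cdx1) against 3.63% of all windows, and CTTTGTT in 0 against 5.98%. The PBX and HOX-type TGATTNA was in 7 windows (Hoxa2, Hoxa9, Hoxb1, Hoxd3, Hoxd9, Hoxd11 and Cdx2), which is 31.8%, against 10.2% of all windows. AGGTCA was in 3 (Hoxc4, Hoxd4 and Hoxd10), against 16.2% of all windows. In Hoxa9 the matches to TGATTNA and TTTACG overlap. These matches describe letters in a short window, not binding.

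Across the series, levels are given in TPM (a share of transcripts adjusted for gene length), computed back from the deposited log2(TPM+1). Relative depth of the libraries, read from the steps between low values, was 1 and 1.37 in ESC, 1.16 and 1.5 in EpiLC, 1.32 and 1.14 in PGCLC_d3, and 2.17 and 2.38 in PGCLC_d3ag3. Read totals are not known, so no counting interval is given, and values under 1 TPM rest on few reads. The labelled cell types stood against their markers as follows: the summed level of 10 naive pluripotency genes was highest in ESC (5410 and 5375 TPM), that of 10 formative epiblast genes in EpiLC (5262 and 5427 TPM), that of 8 early germ cell genes in PGCLC_d3 (1799.9 and 1821 TPM), and that of 7 gonadal germ cell genes in PGCLC_d3ag3 (1259 and 1299 TPM). The early germ cell sum was also high in ESC (1411 and 1422 TPM) and in PGCLC_d3ag3 (1398 and 1440 TPM). Its list shares Prdm14 and Dppa3 with the naive list. The library kit does not keep strand, so HOX reads and those of antisense transcripts cannot be told apart. By RefSeq's gene models, Hoxa3 also overlaps Hoxa4, Hoxa5 and Hoxa6, and Hoxc6 overlaps Hoxc4 and Hoxc5, so levels of these 7 genes are uncertain where reads were shared.

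ESC held the most HOX and CDX transcripts of the 4 groups, and nearly all of the HOX transcripts came from the HOXA cluster. A total of 11 of 38 HOX genes and all 3 CDX genes reached 1 TPM in both ESC libraries. The 11 were 8 of the 10 HOXA genes, Hoxb13 of HOXB, Hoxd8 and Hoxd9 of HOXD, and 0 of the 9 HOXC genes. By number, 2 of 8 genes numbered 1 to 3 reached that level, 4 of 15 numbered 4 to 8, and 5 of 15 numbered 9 to 13. The summed HOX level was 279 and 270.1 TPM in the ESC libraries, of which HOXA made up 90.5% and 91.3%. At the other end, 7 of the 38 HOX genes were listed at 0 in both ESC libraries.

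**Figure D1:**
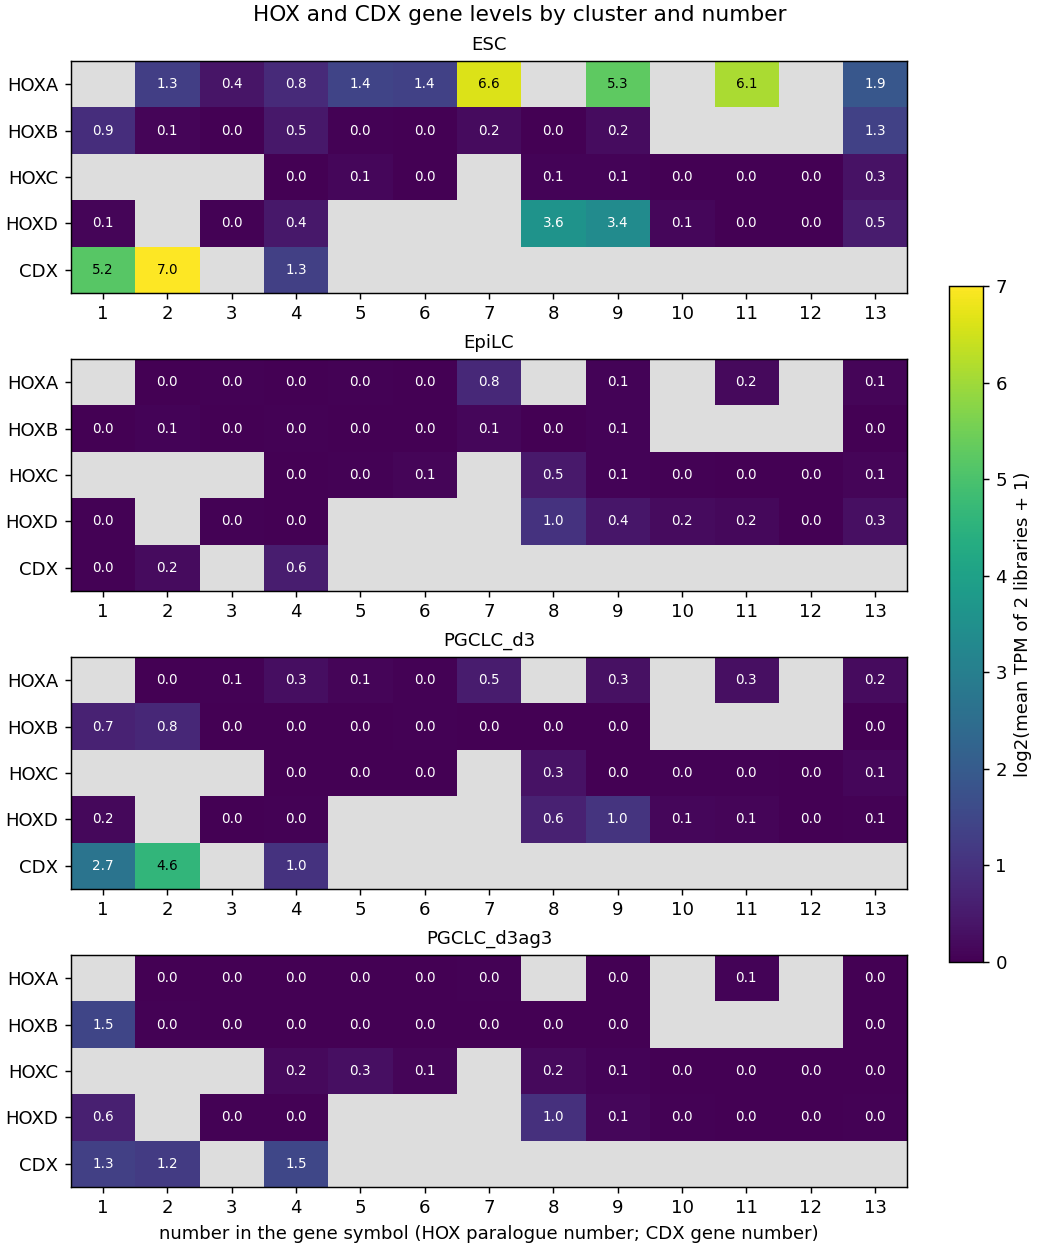
Each panel is 1 group, with clusters down the side, the number in the gene symbol along the bottom, and the colour and printed value giving log2(mean TPM of 2 libraries + 1); grey cells hold no gene shown here. The HOXA row and the CDX row are bright in ESC and dark in EpiLC; Cdx1 and Cdx2 are lit in PGCLC_d3, and Hoxb1 is the brightest HOX gene shown in PGCLC_d3ag3.

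Within ESC the highest of the 41 was Cdx2, at 116 and 135 TPM, which placed its mean above 92.5% of the named genes. Hoxa7, a gene of thoracic patterning in the mouse, followed with 102 and 92.4 TPM, above 90.5% of genes. Then came Hoxa11, which in the mouse shapes the forearm, the kidney and the uterus, with 66.7 and 69.5 TPM. These 3 did not overlap one another. Hoxa9, known from blood progenitors and leukaemia, had 36.6 and 37.8 TPM, and Cdx1, a WNT-responsive gene of vertebral patterning, had 36.9 and 34.2 TPM. This pair overlapped, so its order was not resolved. Below them, Hoxd8 had 12.0 and 9.92 TPM and Hoxd9 had 9.92 and 8.79 TPM, with ranges that touch.

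The remaining ESC levels were low. Hoxa13, a gene of the hand and the hindgut, averaged 2.73 ± 0.26 TPM (SD, n = 2). Hoxa2, Hoxa5, Hoxa6, Hoxb13 and Cdx4 had means between 1.48 and 1.70 TPM, and Hoxb1 had 0.869 ± 0.027 TPM. The other 26 genes never reached 1 TPM in any of the 8 libraries. Their highest single values were 0.923 TPM for Hoxa4 in ESC, 0.819 TPM for Hoxb2 in PGCLC_d3, 0.723 TPM for Hoxd1 in PGCLC_d3ag3 and 0.518 TPM for Hoxc8 in PGCLC_d3. Hoxb8, Hoxc12 and Hoxd12 were listed at 0 in all 8 libraries. HOXC as a whole summed to at most 0.696 TPM in a library.

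Mouse feeder cells were part of the ESC culture. The 19 fibroblast and feeder markers summed to 37.9 and 32.6 TPM in ESC, with 6 of them at 1 TPM or more, Col1a1 at a mean of 10.5 TPM and Dcn at 0.274 TPM, and Thy1 and S100a4 at 0. In EpiLC the same markers summed to 62.5 and 109 TPM, with Dcn at a mean of 12.7 TPM. Reads were aligned to the rat build rn7, so mouse RNA counts in these sums only where its reads map there. Rat and mouse transcripts cannot be told apart in them. The part of feeder RNA in the ESC levels was not tested. The trunk mesoderm and neural tube markers, tissues in which HOX genes are normally active, summed to 32.6 and 31.4 TPM in ESC, with 7 of 15 at 0 in both libraries, among them Meox1, Meox2, Pax6 and Pax2. The 2 at or above 1 TPM in both ESC libraries were Tcf15, with a mean of 25.3 TPM, and Sox1, with a mean of 5.05 TPM. The trunk mesoderm and neural tube markers summed to less in EpiLC (13.9 and 11.1 TPM) than in ESC, and to more in PGCLC_d3 (65.7 and 66.7 TPM). Of the 4 tested, 1 was higher and 2 lower in EpiLC than in ESC, beside 35.4% of all tested genes higher and 31.8% lower. The part of such tissues in the ESC levels was not tested.

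**Figure D2:**
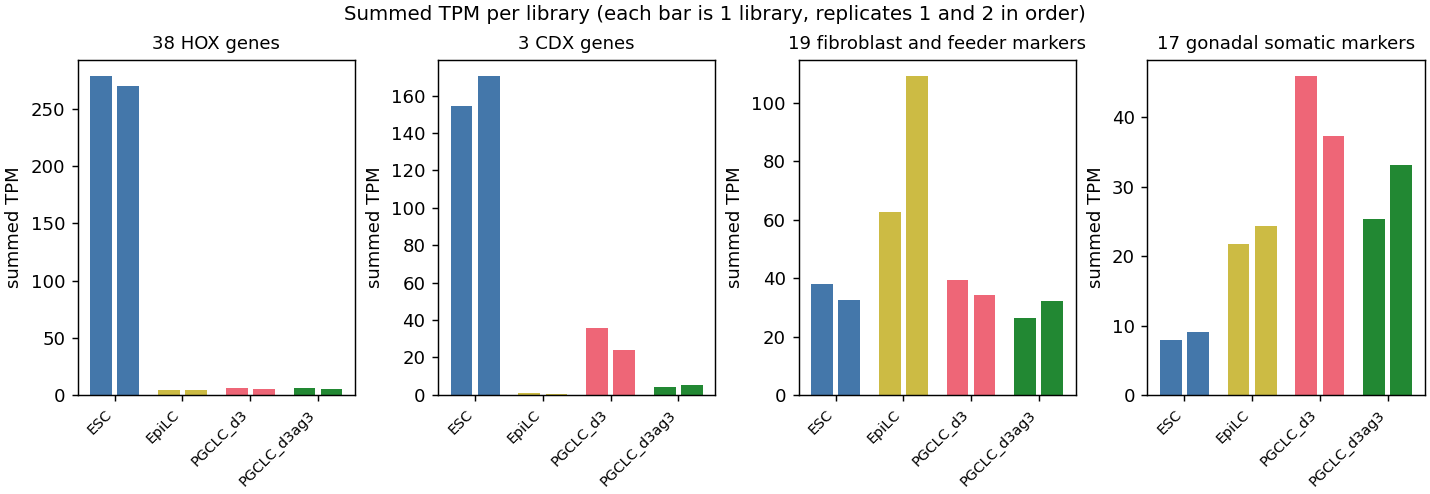
Summed TPM of the 38 HOX genes, the 3 CDX genes, 19 fibroblast and feeder markers and 17 gonadal somatic markers; each bar is 1 library, and axes start at 0 and differ in scale. The HOX and CDX bars are highest in ESC, the fibroblast bars in EpiLC (62.5 and 109) and the gonadal somatic bars in PGCLC_d3 (46.0 and 37.3).

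A gene was tested where it had at least 1 TPM in at least 2 of the 8 libraries, which left 13571 genes in limma, and was called at a Benjamini-Hochberg adjusted p under 0.05. Differences are on the log2(TPM+1) scale, which understates the change of low genes. Of the 41, 15 were tested: 8 HOXA, 2 HOXB, 0 HOXC, 2 HOXD and 3 CDX genes. Since 8 of the 15 (Hoxa2, Hoxa5, Hoxa6, Hoxa7, Hoxa9, Hoxa11, Hoxa13 and Hoxb13) reached 1 TPM in ESC libraries only, they had to differ from ESC, and counts against ESC describe the set without supporting anything.

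**Figure D3:**
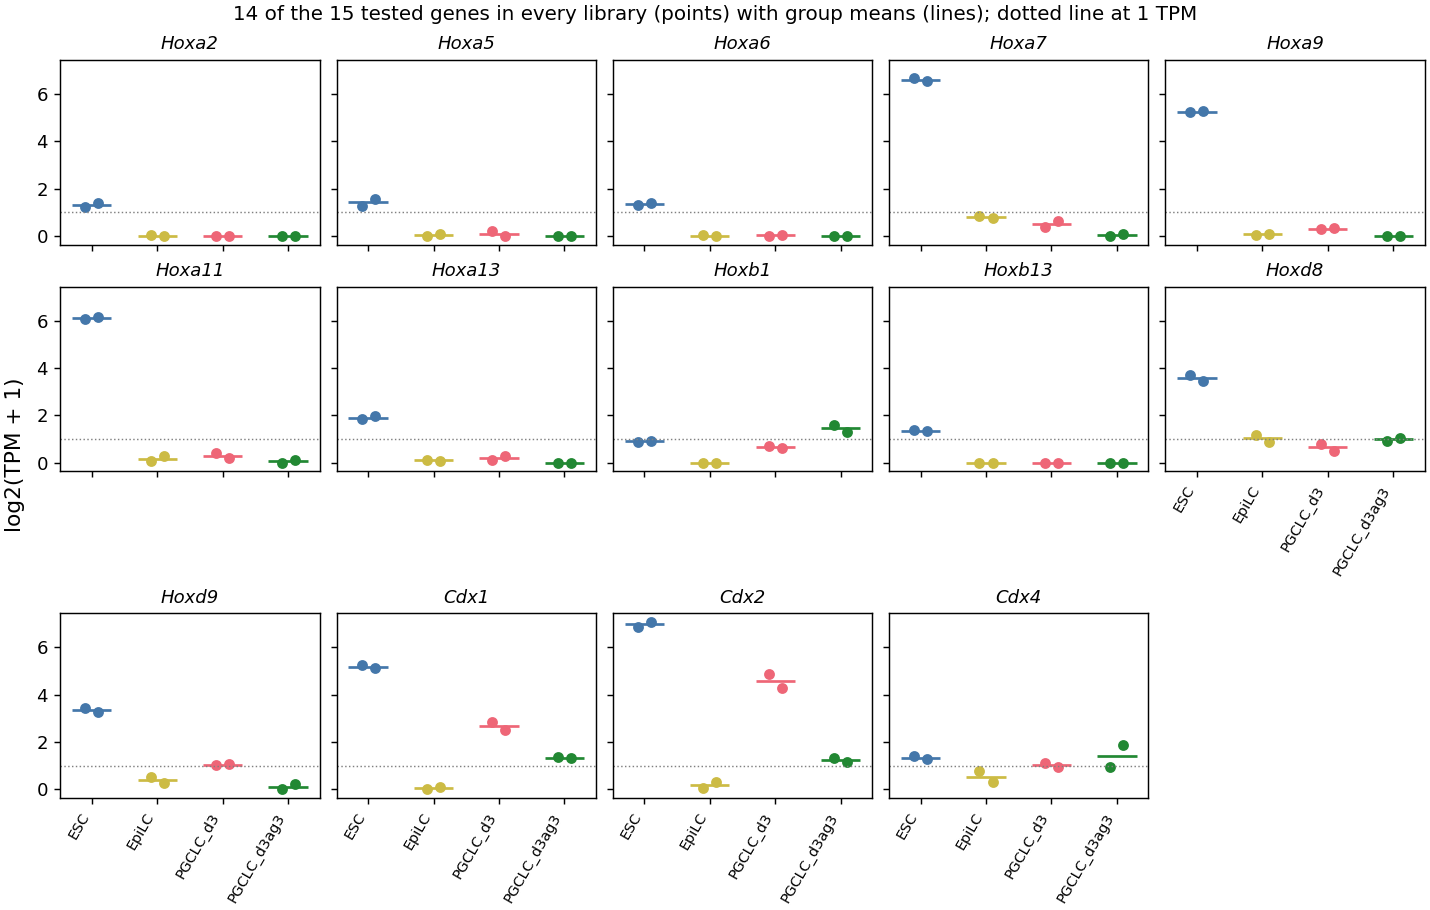
Each panel is 1 of 14 of the 15 tested genes, with log2(TPM + 1) of each library as a point, the group mean as a line and a dotted line at 1 TPM. Cdx1 and Cdx2 are high in ESC, near 0 in EpiLC and intermediate in PGCLC_d3, while Hoxa7, Hoxa9 and Hoxa11 stay below 1 TPM after ESC.

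In EpiLC, the HOX and CDX genes of ESC were nearly silent: 0 of 41 reached 1 TPM in both libraries, and the summed HOX level was 3.89 and 3.86 TPM, against 279 and 270.1 TPM in ESC. All 15 tested genes were lower in EpiLC than in ESC and 0 were higher, also at an unadjusted p under 0.05, beside 67.3% of all tested genes called changed, 31.8% lower and 35.4% higher. The median difference was -2.55 over the 15 and 0.04 over all tested genes. Because 8 of the 15 passed the filter through ESC alone, this count and this median describe the set without supporting anything. In these bulk libraries fewer expressing cells and less RNA per cell cannot be told apart.

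Cdx2 had 0.050 and 0.235 TPM in EpiLC, against 116 and 135 TPM in ESC. The groups were far apart: the difference was -6.79 (SE 0.19, limma adjusted p = 1.52e-09), and the ESC mean was 879.5-fold the EpiLC mean. Cdx1 was listed at 0 and had 0.059 TPM in EpiLC, against 36.9 and 34.2 TPM in ESC, a difference of -5.15 (SE 0.14, limma adjusted p = 1.55e-09). Cdx4, an X-linked relative known from mouse axis elongation and blood, had 0.702 and 0.247 TPM in EpiLC, against 1.63 and 1.41 TPM in ESC. Its groups did not overlap, and its difference was -0.79 (limma adjusted p = 0.0233). The call was lost without ESC replicate 1 (difference -0.73), ESC replicate 2 (-0.85) or EpiLC replicate 2 (-0.57), and kept without EpiLC replicate 1. With no filter on low values it was lost as well (limma adjusted p = 0.0596).

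Among HOXA genes, Hoxa7 had 0.793 and 0.703 TPM in EpiLC, against 102 and 92.4 TPM in ESC. It was the HOXA gene with most transcript left in EpiLC, although its ESC mean was 130-fold higher (difference -5.81, SE 0.14, limma adjusted p = 6.77e-10). Hoxa11 had 0.045 and 0.213 TPM in EpiLC, against 66.7 and 69.5 TPM in ESC, a difference of -5.94 (SE 0.14, limma adjusted p = 5.77e-10). Hoxa9 had 0.021 and 0.081 TPM in EpiLC, against 36.6 and 37.8 TPM in ESC, a difference of -5.18 (SE 0.12, limma adjusted p = 4.51e-10). These HOXA genes, of central and of posterior number, each differed by more than 5 on the log2 scale. Each entered the test through its ESC level alone, so its p-value against ESC is descriptive only.

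The lower HOXA genes differed by less on this scale, with Hoxa13 at -1.81, Hoxa5 at -1.39, Hoxa6 at -1.34 and Hoxa2 at -1.29, each with an EpiLC mean under 0.1 TPM. Outside HOXA, Hoxb13, known from the prostate and the tail end of the axis, was listed at 0 in both EpiLC libraries, and Hoxb1 likewise. The HOXD pair kept more transcript. Hoxd8 had 1.27 and 0.834 TPM in EpiLC, against 12.0 and 9.92 TPM in ESC (difference -2.55, limma adjusted p = 5.37e-07), and Hoxd9 had 0.449 and 0.218 TPM in EpiLC, against 9.92 and 8.79 TPM in ESC (difference -2.96, limma adjusted p = 6.04e-08). HOXA then made up 26.5% and 29.2% of the summed HOX level.

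In PGCLC_d3, Cdx1 and Cdx2 were high again while the HOX genes stayed low. Compared with EpiLC, 5 of the 15 tested genes were higher (among them Cdx1, Cdx2, Hoxb1 and Hoxd9), 0 lower and 10 not called, beside 74.9% of all tested genes called changed, 47.3% higher and 27.6% lower. At an unadjusted p under 0.05, 1 gene (Hoxd8) was lower. The share of higher calls was below that of all genes. Of all called genes 63.2% were higher, but 50.3% after median-of-ratios rescaling and 51.1% after quantile normalization. The median of all tested genes lay at 0.21 in this comparison, at -0.18 in PGCLC_d3ag3 against PGCLC_d3 and at 0.25 in PGCLC_d3 against ESC, and the differences below are to be read against those medians.

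Cdx2 had 28.1 and 18.6 TPM in PGCLC_d3, against 0.050 and 0.235 TPM in EpiLC. Both PGCLC_d3 libraries stood far above both EpiLC libraries (difference 4.39, SE 0.19, limma adjusted p = 2.47e-08). Cdx1 had 6.23 and 4.72 TPM in PGCLC_d3, against 0 and 0.059 TPM in EpiLC (difference 2.64, SE 0.14, limma adjusted p = 1.20e-07). Cdx4 had 1.18 and 0.911 TPM in PGCLC_d3, against 0.702 and 0.247 TPM in EpiLC, and was not called (0.49, limma adjusted p = 0.12). The call on Cdx4 appeared without either PGCLC_d3ag3 library, with an adjusted p of 0.024 without replicate 1 and 0.0235 without replicate 2.

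The HOX genes called here and named stayed near or below 1 TPM. Hoxb1, the early hindbrain gene of the HOXB cluster, had 0.645 and 0.533 TPM in PGCLC_d3 and was listed at 0 in both EpiLC libraries (0.67, limma adjusted p = 9.20e-04). Hoxd9 had 1.04 and 1.09 TPM in PGCLC_d3, against 0.449 and 0.218 TPM in EpiLC (0.64, limma adjusted p = 0.00227), and was the 1 HOX gene at or above 1 TPM in both PGCLC_d3 libraries. Hoxd8 had 0.733 and 0.399 TPM in PGCLC_d3, against 1.27 and 0.834 TPM in EpiLC, a difference of -0.39 that missed the threshold (limma adjusted p = 0.0549) and passed it without EpiLC replicate 2 (0.0363) or PGCLC_d3 replicate 1 (0.0374). Hoxa7 had 0.30 and 0.577 TPM in PGCLC_d3, against 0.793 and 0.703 TPM in EpiLC, and was not called (-0.29, limma adjusted p = 0.0851). Median-of-ratios rescaling and quantile normalization called both Hoxd8 and Hoxa7 lower.

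**Figure D4:**
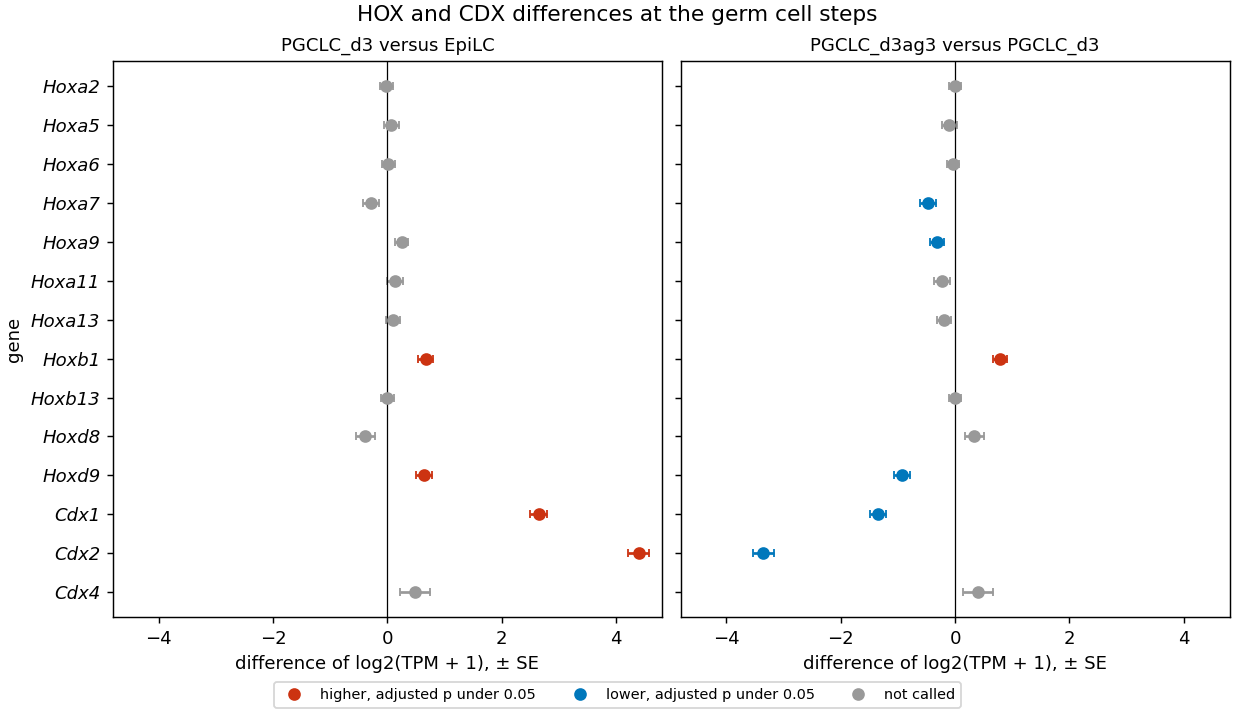
Points are differences of log2(TPM + 1) with bars of 1 SE for 14 of the 15 tested genes, PGCLC_d3 against EpiLC on the left and PGCLC_d3ag3 against PGCLC_d3 on the right; red is higher, blue lower and grey not called. Cdx2 lies at 4.39 on the left and at -3.35 on the right, while Hoxb1 lies right of 0 in both panels.

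Hoxb2, a neighbour of Hoxb1 in its cluster, was under the filter. It had 0.819 and 0.609 TPM in PGCLC_d3, against 0 and 0.103 TPM in EpiLC, and with no filter on low values it was called higher (0.70, limma adjusted p = 1.94e-04). Beside the higher Cdx2, markers of trophoblast and extraembryonic tissue, where Cdx2 is also active, were higher in PGCLC_d3 than in EpiLC in 10 of 12 tested and lower in 2. They summed to 822 and 767 TPM in PGCLC_d3, against 256 and 245 TPM in EpiLC. Over all tested genes 47.3% were higher and 27.6% lower in this comparison. Gata3 averaged 6.72 TPM in PGCLC_d3 and 0.0686 TPM in EpiLC, whereas Elf5 averaged 0.0335 TPM in PGCLC_d3 and 0.0544 TPM in EpiLC. Their part in the Cdx2 level was not tested.

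After 3 days with gonadal somatic cells, Cdx1 and Cdx2 were lower, and Hoxb1 was higher. Compared with PGCLC_d3, PGCLC_d3ag3 had 2 of the 15 tested genes higher (Hoxb1 among them), 5 lower (Cdx1, Cdx2, Hoxa7, Hoxa9 and Hoxd9) and 8 not called, beside 70.4% of all tested genes called changed, 25.7% higher and 44.8% lower. Both shares were below those of all genes. Of all called genes 36.4% were higher, but 47.5% after median-of-ratios rescaling and 49.4% after quantile normalization.

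Cdx2 had 1.48 and 1.21 TPM in PGCLC_d3ag3, against 28.1 and 18.6 TPM in PGCLC_d3 (difference -3.35, SE 0.19, limma adjusted p = 3.53e-07). Both later libraries were more than 10-fold below both earlier ones. Cdx1 had 1.57 and 1.48 TPM in PGCLC_d3ag3, against 6.23 and 4.72 TPM in PGCLC_d3 (-1.35, SE 0.14, limma adjusted p = 2.15e-05). Cdx4 had 0.957 and 2.68 TPM in PGCLC_d3ag3, against 1.18 and 0.911 TPM in PGCLC_d3. The later libraries disagreed and overlapped the earlier ones, so it was not called (0.40, limma adjusted p = 0.205), though without PGCLC_d3ag3 replicate 1 it was, at 0.85 and an adjusted p of 0.00581.

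Hoxb1 had 2.01 and 1.48 TPM in PGCLC_d3ag3, against 0.645 and 0.533 TPM in PGCLC_d3 (0.78, SE 0.13, limma adjusted p = 3.76e-04). Its groups did not overlap, and its PGCLC_d3ag3 mean was the highest of the HOX genes there. Hoxd1, at the anterior end of its cluster, was under the filter, with 0.723 and 0.331 TPM in PGCLC_d3ag3, against 0.050 and 0.172 TPM in PGCLC_d3, and was called higher with no filter (0.45, limma adjusted p = 0.0216). HOX genes numbered 9 to 13 summed to 0 and 0.459 TPM in PGCLC_d3ag3, against 1.90 and 2.1 TPM in PGCLC_d3. Hoxb2 had 0 and 0.065 TPM in PGCLC_d3ag3, against 0.819 and 0.609 TPM in PGCLC_d3, and was called lower with no filter (-0.73, limma adjusted p = 2.35e-04).

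Hoxd9 had 0 and 0.165 TPM in PGCLC_d3ag3, against 1.04 and 1.09 TPM in PGCLC_d3 (-0.94, SE 0.14, limma adjusted p = 2.20e-04). Hoxa7 had 0 and 0.056 TPM in PGCLC_d3ag3, against 0.30 and 0.577 TPM in PGCLC_d3 (-0.48, limma adjusted p = 0.0112), and its call was lost without PGCLC_d3 replicate 2 (0.118). Hoxa9 was listed at 0 in both PGCLC_d3ag3 libraries, against 0.238 and 0.254 TPM in PGCLC_d3. Its call (-0.32, limma adjusted p = 0.0325) was lost when any library of either group was left out, with an adjusted p of 0.11 and 0.129 without PGCLC_d3 replicates 1 and 2, and of 0.0619 and 0.0607 without PGCLC_d3ag3 replicates 1 and 2. Without PGCLC_d3 replicate 2, 3 genes in place of 5 were lower. Of the 38 HOX genes, 7 were listed at 0 in both libraries in ESC, 11 in EpiLC, 13 in PGCLC_d3 and 20 in PGCLC_d3ag3, whose libraries were the deepest.

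Gonadal somatic cells were the other cells of the PGCLC_d3ag3 aggregates. Their 17 markers summed to 25.4 and 33.1 TPM in PGCLC_d3ag3, against 46.0 and 37.3 TPM in PGCLC_d3, and 5 of 12 tested were higher and 2 lower. Over all tested genes 25.7% were higher and 44.8% lower. Wt1 averaged 1.22 TPM in PGCLC_d3ag3 and 0.0505 TPM in PGCLC_d3, Nr5a1 averaged 0.807 TPM in PGCLC_d3ag3 and 0.0738 TPM in PGCLC_d3, and Foxl2 0.375 TPM in PGCLC_d3ag3 and 0.0344 TPM in PGCLC_d3. In the other direction, Irx3 averaged 7.41 TPM in PGCLC_d3ag3 and 24.1 TPM in PGCLC_d3, and Star 0.646 TPM in PGCLC_d3ag3 and 3.14 TPM in PGCLC_d3. The 9 endothelial and blood markers summed to 185.3 and 185.8 TPM in PGCLC_d3ag3, against 23.2 and 21.0 TPM in PGCLC_d3. In ESC the same markers summed to 158.4 and 158.7 TPM. Of the 5 tested, 3 were higher and 1 lower. Haemoglobin transcripts were among the higher, with Hba-a1 at a mean of 39.8 TPM in PGCLC_d3ag3, against 1.44 TPM in PGCLC_d3, and Hbb at a mean of 8.05 TPM, against 0 in PGCLC_d3. Pecam1 was higher too (2.87, limma adjusted p = 2.4e-09). The 1 lower was Cdh5 (-1.06, limma adjusted p = 2.19e-05). The part of other cells in the level of Hoxb1 was not tested.

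Set directly against ESC, both germ cell groups had lower levels of the tested HOXA and HOXD genes, of Cdx1 and of Cdx2, while Cdx4 was not called in either. These comparisons share the ESC libraries with that of EpiLC, so they are no separate evidence. In PGCLC_d3, 13 of 15 tested genes were lower than in ESC and 0 higher (0 also at an unadjusted p under 0.05), beside 77% of all tested genes called changed, 27.4% lower and 49.6% higher. Of all called genes 64.4% were higher, but 53.5% after median-of-ratios rescaling and 53.1% after quantile normalization. Cdx2 in PGCLC_d3 was at 18.6% of its ESC mean and Cdx1 at 15.4%, while Hoxa7 was at 0.45% and Hoxa11 at 0.34%. Hoxb1, at 0.645 and 0.533 TPM in PGCLC_d3 against 0.851 and 0.888 TPM in ESC, was not called (-0.24, limma adjusted p = 0.119), but was called lower after median-of-ratios rescaling (0.0416) and quantile normalization (0.00353). In PGCLC_d3ag3, 13 of 15 were lower than in ESC, 1 higher and 1 not called, beside 77.3% of all tested genes called changed, 34.8% lower and 42.5% higher. The 1 higher was Hoxb1, at 2.01 and 1.48 TPM in PGCLC_d3ag3 against 0.851 and 0.888 TPM in ESC (0.55, limma adjusted p = 0.00291). It was the only tested HOX or CDX gene with its highest group mean outside ESC, apart from Cdx4, whose difference of 0.09 was not called (limma adjusted p = 0.761) except without PGCLC_d3ag3 replicate 1 (0.55, adjusted p = 0.0345).

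The TALE cofactors (PBX, MEIS and PKNOX proteins), which bind DNA together with HOX proteins, were spread in direction. Of 9 tested, 4 were higher and 3 lower in EpiLC than in ESC, 4 higher and 3 lower in PGCLC_d3 than in EpiLC, and 4 higher and 4 lower in PGCLC_d3ag3 than in PGCLC_d3. The shares over all tested genes were 35.4% higher and 31.8% lower, 47.3% and 27.6%, and 25.7% and 44.8%, in that order. Pknox2 averaged 0.156 TPM in ESC, 23.5 TPM in EpiLC, 0.568 TPM in PGCLC_d3 and 0.456 TPM in PGCLC_d3ag3. Meis3 averaged 0.106 TPM in PGCLC_d3ag3 and 12.2 TPM in PGCLC_d3 (-3.57, limma adjusted p = 1.77e-07).

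Among chromatin regulators, Polycomb proteins keep HOX clusters silent and trithorax proteins keep them active. Of 26 Polycomb genes, 9 were higher and 11 lower in EpiLC than in ESC, with a median difference of -0.12, against 0.04 over all tested genes. Over all tested genes 35.4% were higher and 31.8% lower in that comparison. Phc1 averaged 322 TPM in EpiLC and 19.9 TPM in ESC, a difference of 3.95 (limma adjusted p = 2.31e-10). Bmi1 averaged 10.6 TPM in PGCLC_d3 and 76.9 TPM in ESC. Of 15 trithorax and COMPASS genes, 7 were higher and 4 lower in EpiLC than in ESC, and 3 were higher and 9 lower in PGCLC_d3ag3 than in PGCLC_d3. In the latter comparison 25.7% of all tested genes were higher and 44.8% lower. Wdr5, a shared COMPASS subunit, averaged 199.7 TPM in EpiLC and 648 TPM in ESC.

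Genes that induce or mark the tail end of the embryo changed at each step. Of 17 tested caudal and posterior inducers, 5 were higher and 10 lower in EpiLC than in ESC (median -0.86), beside 35.4% of all tested genes higher and 31.8% lower. In PGCLC_d3, 11 were higher and 5 lower than in EpiLC (median 1.18), beside 47.3% and 27.6% of all tested genes. In PGCLC_d3ag3, 3 were higher and 12 lower than in PGCLC_d3 (median -0.75), beside 25.7% and 44.8% of all tested genes. Tbxt, the mesoderm factor Brachyury, averaged 58.0 TPM in PGCLC_d3 and 0.105 TPM in EpiLC (5.73, limma adjusted p = 8.55e-09). Fgf8 averaged 105 TPM in PGCLC_d3 and 6.41 TPM in EpiLC. Fgf4, 1 of the 5 lower genes, went the other way in this comparison (-6.06, limma adjusted p = 5.84e-09). Of 14 canonical WNT targets, 11 were higher and 3 lower in PGCLC_d3 than in EpiLC (median 1.51), and 1 was higher and 11 lower in PGCLC_d3ag3 than in PGCLC_d3 (median -0.71). The shares over all tested genes in these comparisons are those given above. Notum, a secreted WNT inhibitor, averaged 51.3 TPM in PGCLC_d3 and 0.205 TPM in EpiLC. Ccnd1, 1 of the 3 WNT targets lower in PGCLC_d3 than in EpiLC, differed by -2.22 (limma adjusted p = 1.54e-08). In EpiLC, 5 of the 14 WNT targets were higher and 6 lower than in ESC, which were grown with a GSK3 inhibitor (median -0.12).

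Other homeobox genes of the same broad class were also tested. Of 14, 2 were higher and 7 lower in EpiLC than in ESC (median -0.67), beside 35.4% and 31.8% of all tested genes. In PGCLC_d3, 11 were higher and 2 lower than in EpiLC (median 1.74), beside 47.3% of all tested genes higher and 27.6% lower. In PGCLC_d3ag3, 2 were higher and 10 lower than in PGCLC_d3 (median -0.91), beside 25.7% higher and 44.8% lower of all tested genes. Msx1, a BMP-responsive gene, averaged 175 TPM in PGCLC_d3 and 0.523 TPM in EpiLC, and 29.8 TPM in PGCLC_d3ag3. In the retinoic acid pathway, which activates HOX genes of low number early, 6 of 13 tested genes were higher and 5 lower in PGCLC_d3ag3 than in PGCLC_d3. Rara, a retinoic acid receptor, averaged 34.0 TPM in PGCLC_d3ag3 and 14.1 TPM in PGCLC_d3.

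Genes next to the HOX and CDX genes did not share one direction. By RefSeq's gene order, 20 of 28 such neighbours were tested. Of these, 7 were higher and 9 lower in EpiLC than in ESC, beside 35.4% and 31.8% of all tested genes. Beside HOXA, chosen for their place and named after their values were seen, Skap2 averaged 23.9 TPM in EpiLC and 43.9 TPM in ESC (-0.85), Evx1, a homeobox gene at the posterior end, averaged 0.0668 TPM in EpiLC and 1.04 TPM in ESC (-0.93), and Hibadh 65.3 TPM in EpiLC and 45.7 TPM in ESC (0.51). All 3 differences were called. The other HOXA neighbour, LOC120102271, was lower in EpiLC as well (-0.51, limma adjusted p = 0.0158). Beside HOXB, Calcoco2 averaged 25.2 TPM in EpiLC and 2136 TPM in ESC, a difference of -6.35 (limma adjusted p = 2.47e-08). Snx11, the other tested HOXB neighbour, was lower in EpiLC as well (-1.40, limma adjusted p = 7.27e-06). The highest HOXB level in an ESC library was 1.6 TPM.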

How the data were processed

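Per the labels' protocols, total RNA (PicoPure) was made into libraries by SMART-Seq v4 followed by KAPA Hyper Prep. Per the submitters' processing notes, the tools were bcl2fastq 2.20, cutadapt 1.1.6, HISAT2 2.1.0 and featureCounts of Subread 1.6.5, with genome build rn7. The deposited values are log2(TPM+1) per gene and library. The 11066 rows without a gene name were left out, and TPM was computed back from the log2 values.

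All 8 libraries were fitted together with limma 3.58.1 under R 4.3.3, on the deposited log2 values, by lmFit and a trended eBayes (2-sided tests, 4 residual degrees of freedom). The 13571 genes with at least 1 TPM in at least 2 libraries were tested, with Benjamini-Hochberg adjustment over them and a threshold of 0.05. The fit was tested on simulated data. Groups and replicate numbers came from the sample titles. The median absolute log2 difference between replicates was 0.069 to 0.131. Alternatives were rescaling by median of ratios, quantile normalization, a pseudocount of 0.1, no filter, a filter of 5 TPM, leaving out each library, and a replicate block.

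Genes with a group mean of at least 10 TPM are given in every library; from each other list, at most 3 genes with the largest called differences may be named, and marker lists are given by count and sum, with their defining genes. The genes and lists were chosen with earlier results of these data known. Sequences and gene order come from RefSeq GRCr8, another build than the authors', and serve for windows and neighbours only. Hoxa10 was not analysed here, and some genes of these lists that entered the fits and counts are not reported by name.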

Additional observations from a re-analysis of the deposited data

How the results depend on the processing

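Of the values of the 15 tested genes under the alternatives, 984 kept direction and side of the threshold, 18 passed it newly and 13 lost it, and none changed sign while called. With a filter of 5 TPM, fewer genes were tested, and 8 in place of 15 were lower in EpiLC than in ESC, 8 in place of 13 in PGCLC_d3 and in PGCLC_d3ag3 than in ESC, while 1 in place of 2 was higher in PGCLC_d3ag3 than in PGCLC_d3 and 0 in place of 1 than in ESC. With no filter, 2 in place of 0 were lower in PGCLC_d3 than in EpiLC, 4 in place of 2 higher in PGCLC_d3ag3 than in PGCLC_d3, 1 in place of 0 higher in PGCLC_d3 than in ESC and 3 in place of 1 higher in PGCLC_d3ag3 than in ESC. The count of genes lower in PGCLC_d3 than in EpiLC was 2 after median-of-ratios rescaling, 2 after quantile normalization and 1 with a pseudocount of 0.1; the cause was not tested. Leaving out 1 library at a time gave 0 to 1 for that count, 2 to 3 higher and 3 to 5 lower in PGCLC_d3ag3 than in PGCLC_d3, and 1 to 2 higher in PGCLC_d3ag3 than in ESC. Genes at the level in both libraries numbered 8 in ESC, 1 in PGCLC_d3 and 0 in PGCLC_d3ag3 at 5 TPM, against 14, 3 and 4 at 1 TPM; at 0.5 TPM they numbered 2 in EpiLC, against 0, and 6 in PGCLC_d3.

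With the replicate number as a block, 1 gene in place of 0 was lower in PGCLC_d3 than in EpiLC, and no other call among the 15 changed. Deviations of same-numbered libraries correlated between -0.037 and 0.066, so the numbers are not taken as a pairing. With 2 libraries a group and no read totals, differences of genes under 1 TPM are limited by depth.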
